A study of Mus musculus with 8 samples.

Results

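Sp7, Alpl, Spp1, Ibsp, Dmp1, Mepe and Bglap are 7 genes of bone formation and mineral deposition, listed by their function. Peaks were assigned to a gene when they lay over it or within 5 kb of it. By that rule the 7 genes, of 21883 protein-coding genes, held 10 of 33739 peaks in Ezh2-Cko, 15 of 49405 in Utx-cKO, 7 of 27013 in Jmjd3-Cko and 8 of 28057 in wild type. Chromatin immunoprecipitation with an antibody against trimethylated lysine 27 of histone H3 (H3K27me3) was sequenced in mouse chondrocytes from cartilage, cultured in serum-containing medium. There were 8 libraries, 1 ChIP and 1 input library for each of the genotypes Ezh2-Cko, Utx-cKO, Jmjd3-Cko and wild type. The suffixes Cko and cKO are the labels' own. The promoter or driver behind each knockout, the animals' age and how many animals gave cells are not known from the labels or headers.

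Ezh2 is the enzyme that writes H3K27me3 and Utx and Jmjd3 remove it, and the mark is known from repressed developmental genes. Sp7 (osterix) is the transcription factor that commits precursors to the osteoblast lineage. Alpl, tissue-nonspecific alkaline phosphatase, breaks down the mineralization inhibitor pyrophosphate. Spp1 (osteopontin), Ibsp (bone sialoprotein), Dmp1 and Mepe are acidic secreted proteins of the SIBLING family that bind mineral or regulate its growth. Their genes stand beside each other on chromosome 5. Bglap encodes osteocalcin, a late osteoblast product. Chondrocytes that become hypertrophic can express several of these genes as cartilage is turned into bone.

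With 1 library per genotype there was no replicate error, no difference could be tested, and every comparison below describes these libraries only. After the authors' filters the ChIP libraries held 34786292 fragments in Ezh2-Cko, 34359111 in Utx-cKO, 25655346 in Jmjd3-Cko and 29222251 in wild type, and the inputs 24041619, 23983492, 16645811 and 16599532 in that order. The title prefix differs between Ezh2-Cko, wild type and the pair of demethylase knockouts, so what the prefix stands for and the genotype cannot be told apart outside that pair. Peak coordinates are those of the deposited lists, whose build is not named and was checked against GRCm38. A gene without a called peak is not shown to lack the mark. All 12 chondrocyte marker genes had a peak in each list, Sox9, Col2a1 and Acan among them. Cytosolic ribosomal protein genes, which cells transcribe heavily, had one in 83, 82, 83 and 83 of 85 cases in Ezh2-Cko, Utx-cKO, Jmjd3-Cko and wild type. Over all protein-coding genes the share with a peak over or within 5 kb was 70.6%, 73.5%, 68.9% and 68.7% in that order. Whether the peaks go with repression was not measured.

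The promoters of Alpl, Spp1 and Ibsp are shown for 3 of the situations met among the members. These are a start site under a peak in every list, a peak that begins close to the start site, and no peak nearby in any list. Each sequence runs from 250 bases before to 50 after the outermost start site, from RefSeq on GRCm38.p6, and CpG dinucleotides are in capitals. Alpl is at chr4:137796335-137796634 on the minus strand, Spp1 at chr5:104434861-104435160 and Ibsp at chr5:104299037-104299336, both on the plus strand.
Alpl: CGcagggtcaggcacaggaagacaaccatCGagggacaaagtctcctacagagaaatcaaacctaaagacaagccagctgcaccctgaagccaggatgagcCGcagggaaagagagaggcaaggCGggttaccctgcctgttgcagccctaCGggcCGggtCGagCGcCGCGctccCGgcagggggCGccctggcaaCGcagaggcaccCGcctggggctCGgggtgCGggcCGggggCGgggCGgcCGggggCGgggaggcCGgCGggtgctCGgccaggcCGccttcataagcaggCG
Spp1: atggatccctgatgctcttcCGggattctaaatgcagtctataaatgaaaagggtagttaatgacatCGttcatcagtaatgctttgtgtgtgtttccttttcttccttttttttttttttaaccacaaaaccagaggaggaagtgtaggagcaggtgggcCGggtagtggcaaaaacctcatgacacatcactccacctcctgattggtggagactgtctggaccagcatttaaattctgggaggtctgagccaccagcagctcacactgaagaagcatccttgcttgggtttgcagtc
Ibsp: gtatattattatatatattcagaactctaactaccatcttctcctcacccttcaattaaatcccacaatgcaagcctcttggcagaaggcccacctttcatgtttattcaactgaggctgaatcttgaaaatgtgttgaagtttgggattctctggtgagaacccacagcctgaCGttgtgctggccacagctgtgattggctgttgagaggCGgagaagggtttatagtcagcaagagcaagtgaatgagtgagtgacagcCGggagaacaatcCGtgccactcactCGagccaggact

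The Alpl promoter held 26 CpG and 70.0% G and C, with a ratio of observed to expected CpG of 0.72. Spp1 held 3 CpG with a ratio of 0.195, and Ibsp 5 with 0.311. Of the other promoters with an entry, Dmp1 had 7 CpG, Mepe 3 and Bglap 4, with ratios of 0.417, 0.274 and 0.169. Over 32851 promoters of the table the median was 7 CpG and a ratio of 0.384. Sp7 had no entry. When 17491 protein-coding genes were ordered by this ratio and divided into 3 equal groups, Spp1, Ibsp, Mepe and Bglap fell in the lowest group, Dmp1 and Alpl in the middle one and none in the highest. In the lowest group 30.0%, 34.7%, 26.5% and 27.1% of genes had a peak over or within 5 kb in Ezh2-Cko, Utx-cKO, Jmjd3-Cko and wild type. In the middle group the shares were 82.6%, 85.6%, 81.3% and 80.7%, and in the highest 98%, 98.5%, 98% and 97.8%. Spp1 in all 4 lists and Mepe in Utx-cKO were the members of the lowest group with a peak. Dmp1 had a peak in the Utx-cKO list and not in the other 3, where most genes of its group had one.

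**Figure D1:**
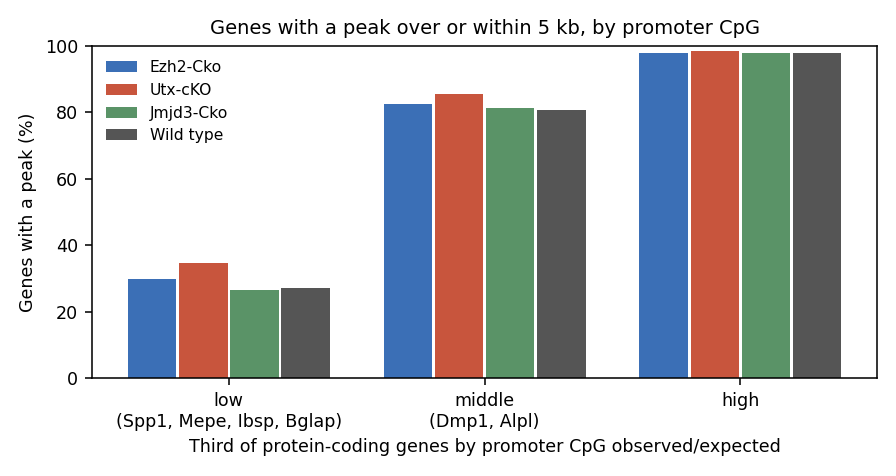
Share of protein-coding genes with a peak over or within 5 kb (y axis, %), in 3 equal groups of 5830 or 5831 genes by the promoter's ratio of observed to expected CpG (x axis), 1 bar per library, with the members under their group. In wild type the shares are 27.1%, 80.7% and 97.8% from the lowest group to the highest.

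The hexamer TATAAA, searched on both strands, occurred in 13.6% of all promoters, and TGTGGT, the core bound by RUNX factors, in 16.8%. Bglap held TATAAA at position -27, counted from the start site, and Ibsp held it on the opposite strand at -28. Spp1 and Mepe had it farther out, at -211 and, on the opposite strand, at -173. The letters TGTGGT stood on the opposite strand at -132 in Bglap and at -128 in Spp1, and in Mepe on the strand of the gene at -80 and on the opposite strand at -118. No match of one hexamer overlapped a match of the other. The promoters of Alpl and Dmp1 at the outermost start site held neither hexamer.

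Peaks were found at Sp7, Alpl and Spp1 in all 4 lists, at Mepe and Dmp1 in Utx-cKO alone, and at Ibsp and Bglap in none. That gave 3 of 7 genes with a peak in Ezh2-Cko, 5 in Utx-cKO, 3 in Jmjd3-Cko and 3 in wild type. Of all protein-coding genes 70.6% had a peak in Ezh2-Cko, 73.5% in Utx-cKO, 68.9% in Jmjd3-Cko and 68.7% in wild type. Over all genes 66.4% had a peak in all 4 lists, against 3 of the 7. A peak in no list was seen for 25.3% of genes, against 2 of the 7. Presence in the Utx-cKO list alone was seen for 2.24% of genes, against 2 of the 7, both from the SIBLING cluster.

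Set against wild type, no member lacked a peak in a knockout list where the wild-type list had one. The share of all genes with a wild-type peak that had none in the knockout was 1.63% (Ezh2-Cko), 0.739% (Utx-cKO) and 2.58% (Jmjd3-Cko), against 0 of 3 members each. Of the 4 members without a wild-type peak, the Ezh2-Cko list had a peak at 0, the Utx-cKO list at 2 and the Jmjd3-Cko list at 0. Among all genes without a wild-type peak the shares were 9.75%, 16.9% and 6.38% in that order.

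The SIBLING genes lie in the order Dmp1, Ibsp, Mepe and Spp1 over 253 kb, counted with 5 kb at either end. The Ezh2-Cko list had 1 peak there, Utx-cKO 7, Jmjd3-Cko 2 and wild type 3. Peaks covered 866 bp of the cluster in Ezh2-Cko, 8085 bp in Utx-cKO, 2885 bp in Jmjd3-Cko and 2445 bp in wild type. As a share of the cluster this was 0.342% in Ezh2-Cko, 3.19% in Utx-cKO, 1.14% in Jmjd3-Cko and 0.965% in wild type. The complete lists covered 2.57%, 3.97%, 2.21% and 2.17% of the effective genome size in the file headers. The cluster's share is taken of its full length and the lists' share of an effective size. With these unlike denominators, neither is placed above or below the other here. In lists of equal length, made as described next, the covered length was 866 bp in Ezh2-Cko, 3650 bp in Utx-cKO, 2885 bp in Jmjd3-Cko and 2445 bp in wild type, and with q of 0.001 or less it was 0, 1913, 1703 and 1517 bp in that order.

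Joined across lists, the peaks formed 8 separate sites. Of these 1, at Spp1, was present in all 4 lists, 4 were in Utx-cKO alone and 1 in wild type alone. The site in wild type alone lay at the edge of the counted region. A Utx-cKO peak that overlapped it began just outside that region and was left out. Between Mepe and Spp1, one site was shared by Jmjd3-Cko (104392683 to 104393864) and Utx-cKO (104393215 to 104393793). Another was shared by Utx-cKO (104407194 to 104407658) and wild type (104407365 to 104408210). With the lists cut to an equal length of 27013, the size of the Jmjd3-Cko list, by keeping the peaks of highest fold enrichment, the cluster held 1 peak in Ezh2-Cko, 3 in Utx-cKO, 2 in Jmjd3-Cko and 3 in wild type. The peak count of Utx-cKO thus stood above the others in the complete lists and equal to wild type in lists of equal length. The Ezh2-Cko ChIP library, which held more fragments than that of Utx-cKO, had the fewest peaks in the cluster. The part of depth, scaling and library preparation in these differences was not tested.

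Spp1 carried the one peak that all libraries shared in the cluster, over the first part of the gene. With q of 0.001 or less it remained in Jmjd3-Cko and wild type and not in Ezh2-Cko or Utx-cKO. It ran from 104435250 to 104436115 in Ezh2-Cko, from 104435156 to 104436892 in Utx-cKO, from 104435139 to 104436841 in Jmjd3-Cko and from 104435315 to 104436831 in wild type. Its width was 866 bp in Ezh2-Cko, 1737 bp in Utx-cKO, 1703 bp in Jmjd3-Cko and 1517 bp in wild type, so Ezh2-Cko had the narrowest. Fold enrichment, the authors' ratio over the local input that ranks peaks within a list only, was 2.83 in Ezh2-Cko, 2.96 in Utx-cKO, 3.21 in Jmjd3-Cko and 3.54 in wild type. These values stood above 41.3%, 46.9%, 38.5% and 52.8% of the peaks of the same list, near the middle in each. The peaks began 139, 45, 28 and 204 bp inside the outermost start site in the same order, and none covered that site. Of the promoter printed above, peaks took in 0 bases in Ezh2-Cko, 5 in Utx-cKO, 22 in Jmjd3-Cko and 0 in wild type. A second annotated start site of Spp1, with its 300-base window at chr5:104435942-104436241, lay under the peak as a whole window in Utx-cKO, Jmjd3-Cko and wild type. In Ezh2-Cko the peak took in 174 bases of that window and ended 77 bp short of the second start site.

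Farther on, wild type had a peak of 333 bp that began 4919 bp beyond Spp1, just inside the 5 kb window. Utx-cKO had one of 996 bp that began 5074 bp beyond the gene and Ezh2-Cko one of 356 bp at 5734 bp, both just outside. The Utx-cKO peak (104446127 to 104447122) overlapped that of wild type (104445972 to 104446304) and that of Ezh2-Cko (104446787 to 104447142). The length under peaks in the Spp1 window was 866 bp in Ezh2-Cko, 1737 bp in Utx-cKO, 1703 bp in Jmjd3-Cko and 1599 bp in wild type. The wild-type value takes in the part of the flanking peak that lies inside the window. Against wild type the ratios were 0.542, 1.09 and 1.07.

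Mepe, expressed by osteocytes and odontoblasts and known as a source of peptides that restrain mineralization, had peaks in Utx-cKO alone. A peak of 2787 bp lay over the gene from 104332811 to 104335597, with fold enrichment 2.82, and a second of 1448 bp lay 349 bp beyond it from 104338960 to 104340407, with 3.48. They stood above 36.1% and 64.8% of the peaks of the Utx-cKO list. Neither reached the start site, the nearer one beginning 7482 bp inside the gene. The nearest peak to Mepe lay 96639 bp away in Ezh2-Cko, 54072 bp in Jmjd3-Cko and 68754 bp in wild type. The second Mepe peak remained with q of 0.001 or less and in lists of equal length, and the first did not.

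Dmp1, an osteocyte protein that promotes mineral formation, had 1 peak within the window, in Utx-cKO, of 839 bp from 104218856 to 104219694. It lay 4754 bp beyond the gene, near the edge of the window, with fold enrichment 2.50, above 3.85% of its list. The nearest peak was 83344 bp from Dmp1 in Ezh2-Cko, 148639 bp in Jmjd3-Cko and 149116 bp in wild type. With a window of 2 kb, with q of 0.001 or less, or in lists of equal length, Dmp1 had no peak in any list.

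Ibsp, a protein that nucleates hydroxyapatite, had no peak within 10 kb in any library. The nearest peak was 123778 bp away in Ezh2-Cko, 21339 bp in Utx-cKO, 81211 bp in Jmjd3-Cko and 95893 bp in wild type. The Utx-cKO peak at that distance is the one over Mepe. The fifth SIBLING gene, Dspp, the dentin sialophosphoprotein gene beside Dmp1 and no member, had no peak within 5 kb in any list either. Over the 5 genes of the family 1 had a peak in Ezh2-Cko, 3 in Utx-cKO, 1 in Jmjd3-Cko and 1 in wild type. The shares of all protein-coding genes were 70.6%, 73.5%, 68.9% and 68.7% in that order.

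Around the cluster, Pkd2, next to Spp1, and Nudt9 and Hsd17b11 at the other side had a peak in all 4 lists. The strongest at Pkd2 had fold enrichment 12.3 in Ezh2-Cko, 15.3 in Utx-cKO, 15 in Jmjd3-Cko and 10.8 in wild type. Sparcl1 had a peak in Ezh2-Cko (3.21) and Utx-cKO (3.46) and not in Jmjd3-Cko or wild type. Hsd17b13 had one in Ezh2-Cko (2.45) and wild type (3.42) and not in the demethylase knockouts. With Dspp, the neighbours came to 5 of 6 genes in Ezh2-Cko, 4 in Utx-cKO, 3 in Jmjd3-Cko and 4 in wild type. These stand beside 70.6%, 73.5%, 68.9% and 68.7% of all protein-coding genes.

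Sp7, on chromosome 15, was the member with the strongest peak in each list except wild type, where that of Alpl was stronger. It had 5 peaks in Ezh2-Cko, 5 in Utx-cKO, 4 in Jmjd3-Cko and 4 in wild type. Joined across lists they formed 5 sites, 4 of them present in all 4 libraries and 1 in Utx-cKO alone.

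The strongest site lay just beyond the lower-coordinate end of Sp7, 299 bp from the gene in Ezh2-Cko, 261 bp in Utx-cKO, 390 bp in Jmjd3-Cko and 477 bp in wild type. It spanned 102354979 to 102356126 in wild type and lay within 2 kb of an end of the long noncoding RNA gene Gm36246. Its width was 1451 bp in Ezh2-Cko, 1301 bp in Utx-cKO, 1190 bp in Jmjd3-Cko and 1148 bp in wild type. Its fold enrichment of 5.26, 6.91, 6.63 and 4.18 in that order stood above 70.4%, 81.5%, 68.8% and 59.9% of the list. In width the libraries were close to each other here.

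At the opposite end of Sp7 the widths were less alike. The peak over that end measured 1362 bp in Ezh2-Cko, 1428 bp in Utx-cKO, 487 bp in Jmjd3-Cko and 302 bp in wild type. It reached past the end of the gene in the 3 knockouts and stopped 21 bp inside it in wild type. It ended at 102367178 in Ezh2-Cko, 102367205 in Utx-cKO, 102367137 in Jmjd3-Cko and 102367014 in wild type. Its fold enrichment was 3.49, 4.12, 3.02 and 2.44, above 57.9%, 71.6%, 32.2% and 7.64% of the list. Within the gene a site that ran from 102362394 to 102363128 in wild type was 631 bp wide in Ezh2-Cko, 658 bp in Utx-cKO, 487 bp in Jmjd3-Cko and 735 bp in wild type. The other site inside the gene was split in Ezh2-Cko into peaks of 585 and 279 bp, and held 1569 bp in Utx-cKO, 384 bp in Jmjd3-Cko and 242 bp in wild type. The gene table gives no strand for Sp7, so its start site is not assigned to either end here.

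Peaks covered 4308 bp of the Sp7 window in Ezh2-Cko, 5472 bp in Utx-cKO, 2548 bp in Jmjd3-Cko and 2427 bp in wild type. Against wild type the ratios were 1.78, 2.25 and 1.05. In lists of equal length they were 1.53, 1.40 and 1.05, so the Utx-cKO ratio then lay under 1.5. With q of 0.001 or less they were 1.83, 1.8 and 1.09, and the Utx-cKO ratio lay above 1.5. A peak at the end of the neighbouring gene Aaas, 5149 to 5191 bp from Sp7 in the 4 lists, lay just outside the window and was not counted.

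Alpl, on chromosome 4, had a peak over its outermost start site in all 4 libraries. It ran from 137795876 to 137796650 in Ezh2-Cko, from 137795904 to 137796890 in Utx-cKO, from 137796114 to 137796443 in Jmjd3-Cko and from 137796047 to 137796442 in wild type. Its width was 775 bp in Ezh2-Cko, 987 bp in Utx-cKO, 330 bp in Jmjd3-Cko and 396 bp in wild type. The whole printed promoter of 300 bases lay under it in Ezh2-Cko and Utx-cKO, and 109 and 108 bases of it in Jmjd3-Cko and wild type. The wider peaks thus took in the CpG-rich stretch before the start site, and the narrower ones its last part. Fold enrichment was 3.44 in Ezh2-Cko, 4.24 in Utx-cKO, 2.59 in Jmjd3-Cko and 4.61 in wild type, above 57.3%, 72.3%, 10.4% and 63.6% of the list.

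The remaining peaks at Alpl were weak and differed between libraries. Across lists there were 7 sites, of which 1, at the start site, was in all 4 libraries, and 3 were in a single one. Inside the gene, 11571 to 11911 bp from the outermost start site, a peak was called in the 3 knockouts and not in wild type. Its width was 1184 bp (Ezh2-Cko), 1197 bp (Utx-cKO) and 769 bp (Jmjd3-Cko), with fold enrichment 2.76, 2.88 and 3.02. A site 491 to 750 bp from the second annotated start site was called in Utx-cKO (264 bp) and wild type (483 bp). No peak covered that second start site. Utx-cKO alone had peaks of 1017 and 1122 bp toward the other end of the gene, and Ezh2-Cko alone one of 1036 bp. The Utx-cKO peak of 1122 bp ended at 137748707 and the Ezh2-Cko peak began at 137749185, close to it without overlap. Their fold enrichment was 2.54 and 2.46. Another site inside the gene was called in Ezh2-Cko (550 bp) and Utx-cKO (856 bp).

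**Figure D2:**
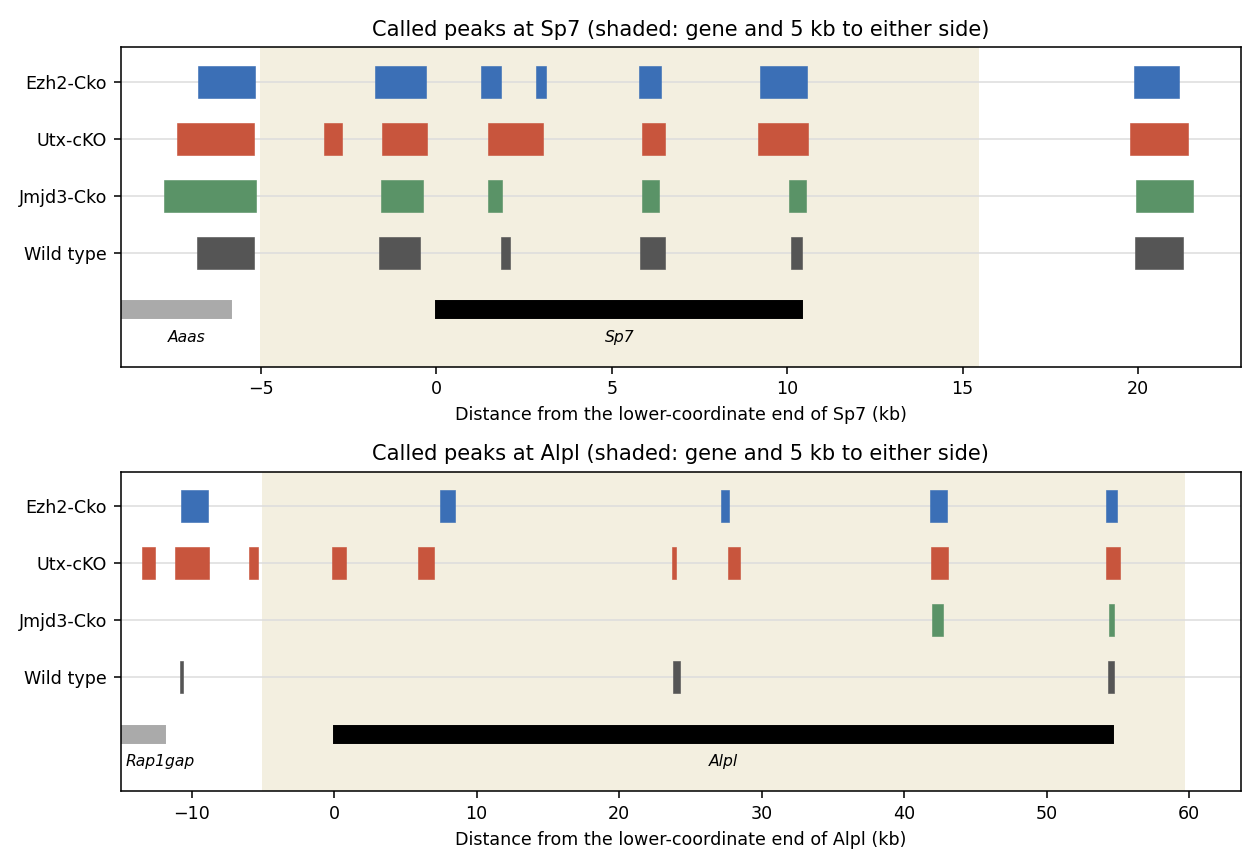
Called peaks (coloured boxes, 1 row per library) at Sp7 (top) and Alpl (bottom), with distance from the lower-coordinate end of the gene in kb on the x axis, member genes in black, neighbours in grey and the window of 5 kb shaded. At Sp7 4 sites within the shaded window recur in every row, while at Alpl only the site at the right-hand end, its outermost start site, recurs in every row.

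Peaks covered 3545 bp of the Alpl window in Ezh2-Cko, 5443 bp in Utx-cKO, 1099 bp in Jmjd3-Cko and 879 bp in wild type. Against wild type the ratios were 4.03, 6.19 and 1.25. In lists of equal length they were 4.95, 2.49 and 2.78, since weak peaks inside the gene, among them the one near the second start site in wild type, are left out of such lists. With q of 0.001 or less they were 1.96, 2.49 and 1.94. Among all genes with a peak in both lists, 15%, 34.9% and 10.2% lay above 1.5 in lists of equal length. With q of 0.001 or less these shares were 13.1%, 38.1% and 9.07%, in the same order. The length at Alpl was thus above 1.5 times wild type in Ezh2-Cko and Utx-cKO in each of these lists, and in Jmjd3-Cko in the stricter ones only. In lists of equal length Jmjd3-Cko kept its 1099 bp, while wild type fell to the 396 bp of its start-site peak. With q of 0.001 or less the Jmjd3-Cko length was the 769 bp peak inside the gene alone, so that ratio sets different sites side by side. At the shared start site the Jmjd3-Cko peak, of 330 bp, was narrower than that of wild type.

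Over the members with a peak in both lists, the length under peaks was above 1.5 times wild type at 2 of 3 (Ezh2-Cko), 2 of 3 (Utx-cKO) and 0 of 3 (Jmjd3-Cko), these being Sp7 and Alpl. Among all such genes the shares were 19.7% (Ezh2-Cko), 48.3% (Utx-cKO) and 9.48% (Jmjd3-Cko). Below 1/1.5 of wild type lay 1 of 3 in Ezh2-Cko, Spp1, and 0 of 3 in Utx-cKO and Jmjd3-Cko, against 3.75%, 1.45% and 6.98% of all genes. The median ratio over all genes was 1.11 (Ezh2-Cko), 1.47 (Utx-cKO) and 1.02 (Jmjd3-Cko). In Utx-cKO a greater length under peaks per gene was thus common to the genome, and 2.25 at Sp7 stands beside that median. The median length of a single peak was 945 bp in Utx-cKO and 997 bp in wild type, and the Utx-cKO list held more peaks.

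**Figure D3:**
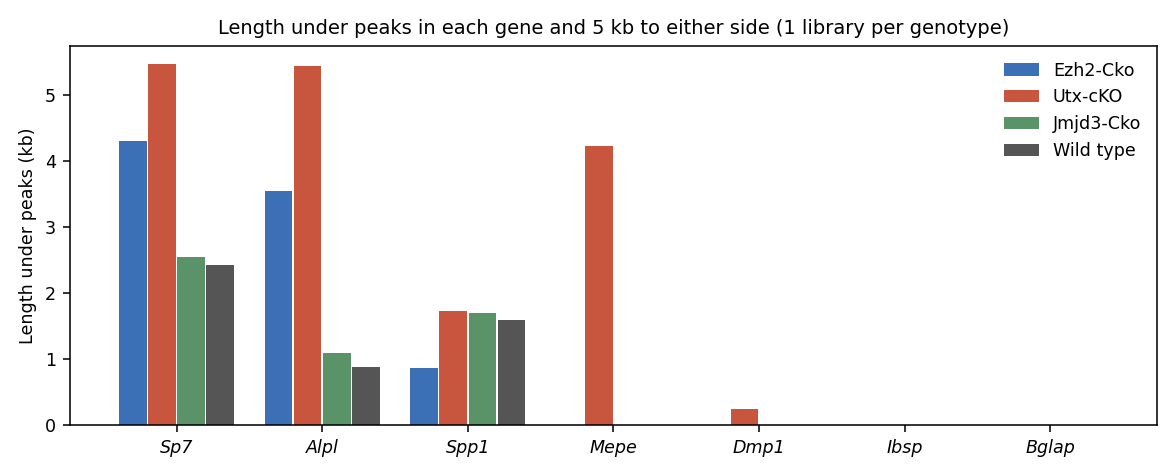
Length under peaks in kb (y axis, from 0) in each gene with 5 kb to either side, 1 bar per library and no error bars, since there is 1 library per genotype. Sp7 and Alpl have the tallest bars in Utx-cKO and Ezh2-Cko, Mepe and Dmp1 have a bar in Utx-cKO alone, and Ibsp and Bglap have none.

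To set ranks beside each other with an equal number ranked, the strongest peak of each gene was placed among the 14537 genes that had a peak in all 4 lists. Sp7 stood above 22.3% of them in Ezh2-Cko, 26.2% in Utx-cKO, 31.8% in Jmjd3-Cko and 17.1% in wild type. Alpl stood above 7.00%, 7.01%, 2.78% and 21.8% in that order. Spp1 stood above 2.17%, 0.564%, 3.93% and 10.5% in the same order. All 3 genes thus stood at 31.8% or below in each library. In Jmjd3-Cko the value of Alpl comes from the peak inside the gene, which there was stronger than the one at the start site.

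Sp7 ranked higher than in wild type in all 3 knockouts, as did 26.4% of the genes ranked. Alpl and Spp1 ranked lower than in wild type in all 3, as did 26.0% of the genes ranked. The 3 comparisons share the one wild-type library.

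**Figure D4:**
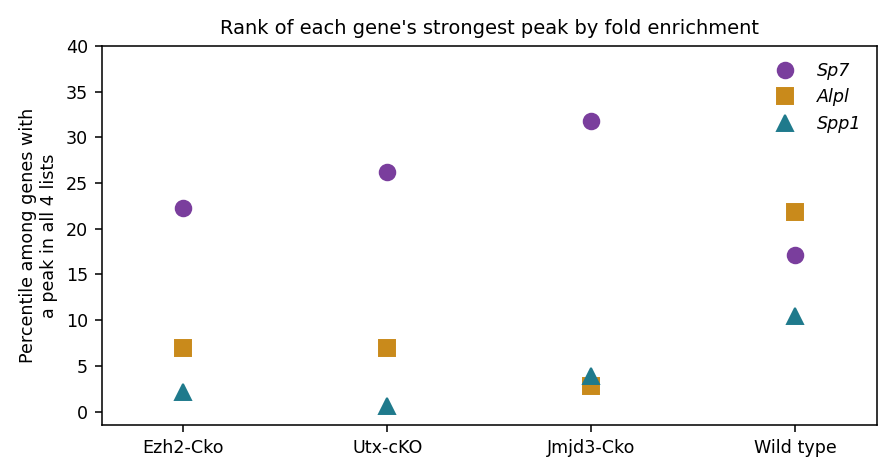
Percentile of the gene's strongest peak by fold enrichment among the 14537 genes with a peak in all 4 lists (y axis), by library (x axis), 1 point per gene and library. Sp7 lies between 17.1 and 31.8, Alpl at 21.8 in wild type and between 2.78 and 7.01 in the knockouts, and Spp1 at 10.5 and below.

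Bglap, on chromosome 3, had no peak within 5 kb in any library. It belongs to a tandem group with the near-identical copies Bglap2 and Bglap3, where short reads may not be told apart, and the handling of such reads is not given in the sources used here. The nearest peak was 6875 bp away in Ezh2-Cko, from 88376198 to 88376620 with fold enrichment 3.03, and 6956 bp away in Utx-cKO, from 88376163 to 88376539 with 3.33. These overlap and lie between Bglap2 and Bglap3. In Jmjd3-Cko and wild type the nearest peaks were 18585 and 18588 bp away. Bglap2 accordingly had a peak within 5 kb in Ezh2-Cko and Utx-cKO and not in Jmjd3-Cko or wild type, and Bglap3 in all 4.

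Lists of other genes of bone formation and mineral handling were counted in the same way, to be read against the 68.7% to 73.5% of all genes with a peak. All 16 osteoblast regulators of the list, Sp7 among them, had a peak in all 4 libraries. Runx2, the regulator that acts before Sp7, had 12 peaks in Ezh2-Cko, 17 in Utx-cKO, 11 in Jmjd3-Cko and 12 in wild type. Its strongest peak had fold enrichment 13.7, 14.8, 11.5 and 7.63 in that order. All 9 genes of osteocytes and of coupling to osteoclasts, such as Sost, Tnfsf11 and Pth1r, also had a peak in every list.

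Of 16 genes of bone matrix outside the SIBLING family, Bglap included, 15 had a peak in Ezh2-Cko, 15 in Utx-cKO, 13 in Jmjd3-Cko and 14 in wild type. Col1a1 and Col1a2, the chains of type I collagen, had one in all 4. Postn had a peak in Ezh2-Cko (3.16), Utx-cKO (3.13) and wild type (3.30) and none in Jmjd3-Cko. Of 14 genes of phosphate and pyrophosphate handling and mineral inhibition, Alpl included, 12 had a peak in each library. Among these were Enpp1, which makes pyrophosphate, Ank, which moves it out of the cell, and Phospho1, which frees phosphate inside matrix vesicles. Phex and Ahsg had none in any list.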

How the data were processed

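H3K27me3 ChIP was compared over 4 genotypes, each with a ChIP and an input library. The tools named in the submitters' processing notes are Bowtie2, ChIPseeker, deepTools 2.4.1, FastQC 0.11.5, HOMER 4.10 and MACS2. Broad peaks were called by the authors, per the file headers, with MACS 2.1.2 in paired-end mode, each ChIP library set against the input of its genotype, with q of 0.05, at most 1 duplicate per position and the larger library scaled to the smaller. The deposited lists give pileup as a coverage signal (not used), −log10 p and −log10 q against input, fold enrichment as a ratio over local input, and peak length, all the authors' values. The genome build is not given in the sources used here.

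Genes and start sites came from RefSeq tables of GRCm38.p6. Of 21237 start sites, 11807 lay under a wild-type peak, against 708 and 736 after moving them by 20 kb either way. Within 3 Mb of Spp1 the counts were 28 of 44, against 0 and 0. Overlap from 1 bp counted. Promoter entries were found for 6 of the 7 members. Marker lists of other cells were examined too (Other observations). The named genes were the members, the SIBLING genes and their neighbours, Bglap2 and Bglap3, genes whose ends lie within 2 kb of a member's peak, and list genes with a peak in some lists and not in others; further genes were named as examples. The members and lists were chosen with earlier results of these data known. With 1 library per genotype no test was made. Alternatives were stricter q, fold enrichment of 4 or more, equally long lists, merging within 3 kb, other windows, an overlap of 50% of the peak, and leaving out peaks at other genes' ends. Gene assignment was tested on simulated peaks at 200 genes, all 200 of which came out right. Python 3.11.15, numpy 2.4.6, pandas 2.3.3 and matplotlib 3.10.9 were used.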

Additional observations from a re-analysis of the deposited data

How the results depend on the processing

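Merging peaks within 3 kb and leaving out peaks at the ends of other genes changed none of the counts of members with a peak. At fold enrichment of 4 or more the counts were 1 in Ezh2-Cko, 2 in Utx-cKO, 1 in Jmjd3-Cko and 2 in wild type, beside 59.1%, 63.4%, 60.3% and 56.6% of all genes, and no SIBLING member remained, the cluster having 0 peaks and 0 bp in each library. The differences from wild type were then -1, 0 and -1 genes in Ezh2-Cko, Utx-cKO and Jmjd3-Cko. At q of 0.001 or less 2 members had a peak in Ezh2-Cko and 3 in each of Utx-cKO, Jmjd3-Cko and wild type, beside 66.7%, 69.4%, 66.5% and 65.3% of all genes, and the differences were -1 in Ezh2-Cko, where Spp1 was lost, and 0 in Utx-cKO, where Mepe was kept and Spp1 and Dmp1 were lost. The cluster then had 0 peaks and 0 bp in Ezh2-Cko, 2 and 1913 bp in Utx-cKO, 1 and 1703 bp in Jmjd3-Cko, and 1 and 1517 bp in wild type. The difference of 2 genes between Utx-cKO and wild type was 1 with equally long lists, with windows of 0 and 2 kb and where at least 50% of the peak had to lie in the window, and 3 with a window of 10 kb. At 10 kb Ezh2-Cko stood 1 above wild type, through Bglap. With equally long lists the Utx-cKO cluster had 3 peaks and 3650 bp. Without the 5 kb margins the wild-type cluster held 2363 bp. Of the alternative values for the length and rank of single members, 70 moved and 25 did not, where any difference, however small, counted as a move. These include the rank among genes with a peak in all 4 lists, taken over another set than the rank within a list. The causes of these changes were not tested. Depth differs between the libraries, its part in which weak peaks were called was not tested, and presence in a single list rests on 1 library. No paired analysis was possible because each genotype has 1 library.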

Other observations

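Outside the windows, a peak 9338 to 9499 bp beyond Sp7 recurred in all 4 libraries, 1284 bp wide in Ezh2-Cko, 1637 bp in Utx-cKO, 1644 bp in Jmjd3-Cko and 1382 bp in wild type. Its fold enrichment of 4.69, 6.92, 6.76 and 4.91 in that order was higher than that of any peak inside the Sp7 window in Utx-cKO, Jmjd3-Cko and wild type, and not in Ezh2-Cko. No other gene's end lies within 2 kb of it.

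Of markers of other cells, 5 genes of hypertrophic chondrocytes had a peak in 3 cases in each library, Col10a1 and Mmp13 having none. Of 5 markers of bone-forming cells 3 had one in each. Of 3 muscle markers 0 had a peak in Ezh2-Cko, 2 in Utx-cKO, 0 in Jmjd3-Cko and 0 in wild type, Myf5 and Des being those of Utx-cKO. Of 4 blood markers 1 had a peak in Ezh2-Cko, 2 in Utx-cKO, 2 in Jmjd3-Cko and 1 in wild type, the difference being Ptprc. Of 4 endothelial markers 2 had one in each. The strongest Utx-cKO peaks at Myf5 and Des had fold enrichment 2.6 and 2.94, below the median of 3.02 of that list. Beside these counts, 70.6%, 73.5%, 68.9% and 68.7% of all protein-coding genes had a peak in Ezh2-Cko, Utx-cKO, Jmjd3-Cko and wild type. In Utx-cKO alone it was 2.24%. A peak list holds no expression, so these counts do not say which cells were present.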
